A study of Mus musculus with 18 samples.

Results

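The transcripts described here are 8 noncoding RNAs that carry smaller RNAs inside their genes. Dleu2 carries the microRNAs miR-15a and miR-16-1, and Gas5, Snhg1, Snhg3, Snhg6, Snhg8, Snhg9 and Snhg12 carry small nucleolar RNAs (snoRNAs). They were taken by name from a table of 23953 entries, and each of the 8 was present and was among the 11520 genes tested. GENCODE annotated all 8 as noncoding, with 26 named snoRNAs and 2 microRNA genes inside them on the same strand. The members were chosen by their levels in these libraries, with results in view that included the low level of Snhg9 in miR-27 Tg cells, so every comparison of the hosts that uses the miR-27 Tg libraries is given below as a description, with no test. Which other values were in view is not recorded, so p-values of the hosts in other comparisons may rest on values that chose them.

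RNA came from CD4+CD25hi regulatory T (Treg) cells of C57BL/6 mice, with 3 libraries per genotype and 18 in all. The miR-23, miR-27 and miR-24 microRNAs lie together in clusters, and T cells overexpressed miR-23 alone in miR-23 Tg mice, miR-24 alone in miR-24 Tg mice, miR-27 alone in miR-27 Tg mice and the whole cluster in cluster Tg mice. In DKO mice (labelled DKO Tg) the miR-23a and miR-23b clusters were deleted in T cells, and WT mice (labelled WT Tg) were the controls. The series title names CD4-cre, a recombinase that acts from the thymus onward in CD4 and CD8 T cells alike, so the changes are not limited to Treg cells. Age and sex are not given in the labels, and neither is whether the libraries of a genotype came from separate animals, so p-values measure the spread between these samples, which may be technical. Values are RPKM, which are reads divided by the length of the transcript and by the mapped reads of the library. Depth estimated from the steps between low values was 20.2 to 31.75 megareads, and 10710 to 11121 genes reached 1 RPKM. Foxp3, the defining transcription factor of Treg cells, was at 196.6 to 347.6 RPKM in the 18 libraries and Cd8a, a marker of CD8 T cells, at 1.15 to 6.562 RPKM. Libraries of the same genotype correlated at r = 0.8923 to 0.9416 across genes, and no library was a copy of another.

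SnoRNAs guide the chemical modification of ribosomal and other RNAs: box C/D snoRNAs (Snord genes) guide methylation of the ribose, and box H/ACA snoRNAs (Snora genes) guide pseudouridylation. They are released from introns after splicing, while the spliced remainder of a noncoding host is an RNA of its own. Gas5, the growth arrest-specific transcript, and Snhg1 are known members of the class of transcripts that begin with a run of pyrimidines (TOP transcripts), which also holds the messages of ribosomal proteins, and spliced Gas5 is known to be removed by nonsense-mediated decay when it is translated. In Dleu2 the 2 microRNAs lie in an intron, and they are known to hold back the cell cycle and the survival factor BCL2 in lymphocytes.

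The start regions are shown because several of these transcripts moved together between libraries. Those of Snhg3 and of another Gas5 start (chr1:161034551-161034650, plus strand) are not printed. Each line is 100 bases on the strand of the gene, 50 before the start annotated by RefSeq on GRCm38.p6 and 50 from it, and capitals mark TATAAA on either strand (read as TTTATA on the gene's strand).
Dleu2 (chr14:61682324-61682423, minus strand): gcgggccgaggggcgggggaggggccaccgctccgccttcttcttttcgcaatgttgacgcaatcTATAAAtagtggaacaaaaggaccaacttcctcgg
Snhg9 (chr17:24719916-24720015, minus strand): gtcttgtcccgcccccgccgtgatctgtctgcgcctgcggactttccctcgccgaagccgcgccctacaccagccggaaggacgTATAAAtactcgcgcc
Snhg8 (chr3:123508287-123508386, minus strand): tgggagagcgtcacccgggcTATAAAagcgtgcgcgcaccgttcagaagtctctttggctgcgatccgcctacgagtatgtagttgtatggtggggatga
Snhg12 (chr4:132308628-132308727, plus strand): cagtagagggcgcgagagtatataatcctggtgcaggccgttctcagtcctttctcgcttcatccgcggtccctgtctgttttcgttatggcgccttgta
Snhg1 (chr19:8723437-8723536, plus strand): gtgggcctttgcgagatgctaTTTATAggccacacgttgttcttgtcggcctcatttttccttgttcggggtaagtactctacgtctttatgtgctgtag
Gas5 (chr1:161035116-161035215, plus strand): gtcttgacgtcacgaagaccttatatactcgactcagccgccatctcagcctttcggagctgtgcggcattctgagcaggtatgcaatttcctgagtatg
The RefSeq table held 8 start regions for 7 of the hosts and none for Snhg6. In windows of 300 bases, 250 before and 50 from the start, TATAAA occurred on either strand in 5 of the 8 start regions (62.5%), against 13.6% of 32851 start regions in the table and 8.57% of 70 start regions of ribosomal protein genes. It began 30 bases before the annotated start in Snhg8 and, on the opposite strand, 29 bases before it in Snhg1. In Dleu2, Snhg3 and Snhg9 the motif began 15, 22 and 34 bases after the annotated start. A run of at least 6 pyrimidines (C or T) lay between 20 bases before and 30 bases after the start in 6 of the 8 (75.0%), against 43.0% of all start regions and 70.0% of those of ribosomal protein genes. In the start regions not printed the longest run was 5 for Snhg3 and 3 for the other Gas5 start. Every printed line therefore holds such a run, which the hosts as a set do not. These are matches of letters and not shown to be sites.

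Dleu2, on chr14:61602839-61682373 (GRCm38, minus strand), was higher than in WT in 3 of the 4 overexpressing genotypes. It was at 4.905, 6.757 and 6.15 RPKM in the 3 miR-24 Tg libraries, 11.35, 9.53 and 11.24 RPKM in miR-27 Tg, and 28.43, 17.37 and 14.33 RPKM in cluster Tg. It was at 2.818, 3.759 and 1.912 RPKM in miR-23 Tg and 1.85, 2.331 and 2.246 RPKM in DKO, against 1.94, 1.844 and 2.316 RPKM in WT. The libraries of cluster Tg, miR-27 Tg and miR-24 Tg lay in that order from high to low with no overlap between neighbours, and every miR-24 Tg library lay above every miR-23 Tg library. The miR-23 Tg, DKO and WT ranges overlapped.

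**Figure D1:**
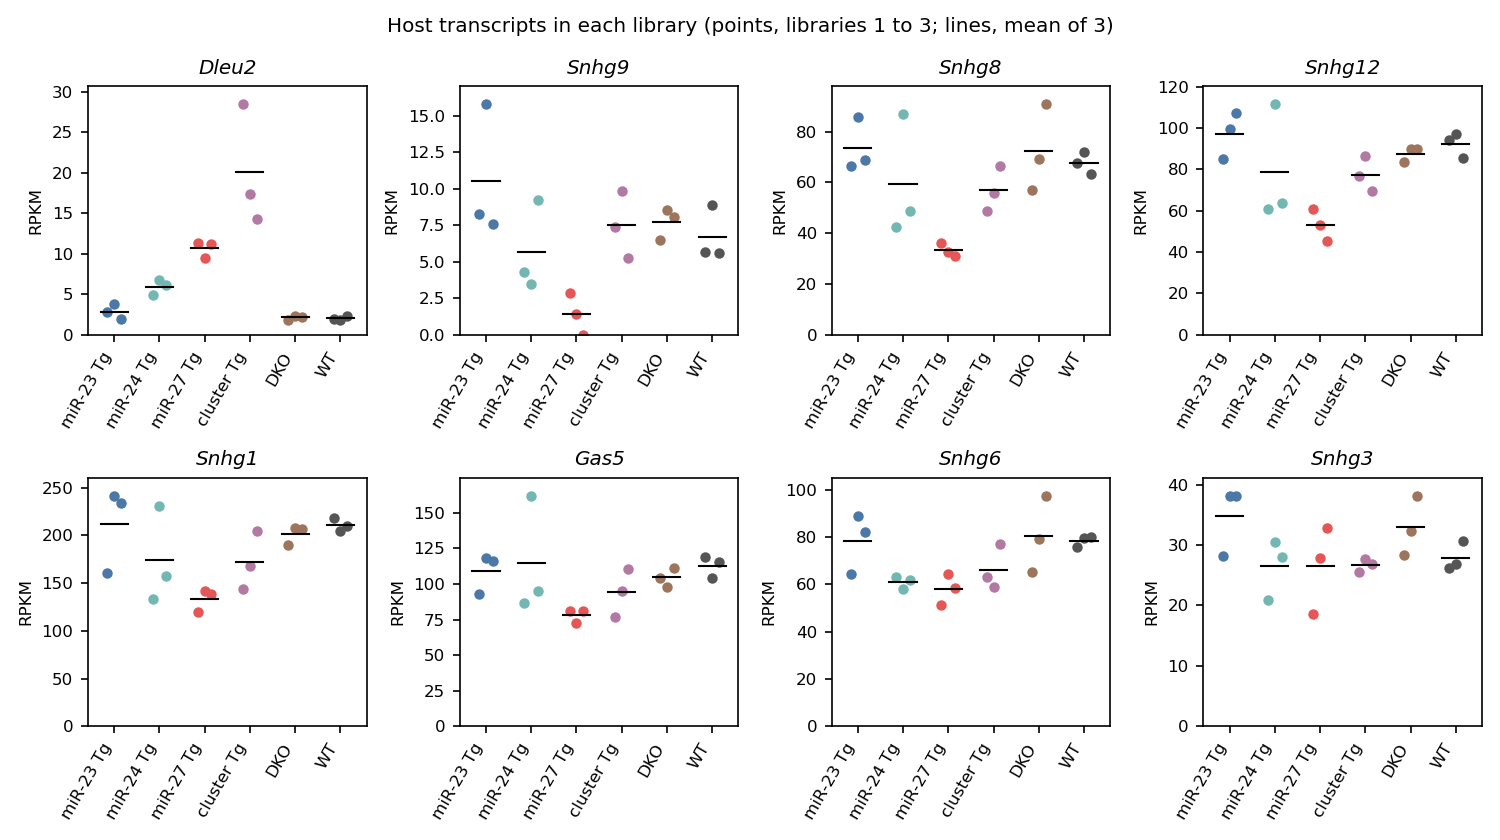
RPKM of the 8 host transcripts (vertical axes, each from 0) in the 3 libraries of each of 6 genotypes (points) with their mean (line). Dleu2 has means of 5.937 RPKM for miR-24 Tg, 10.71 for miR-27 Tg, 20.04 for cluster Tg and 2.034 for WT, while Snhg9, Snhg8 and Snhg12 are lowest in miR-27 Tg; miR-24 Tg library 2 stands high for 4 of the snoRNA hosts.

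Against WT, Dleu2 averaged 5.94 ± 0.944 RPKM in miR-24 Tg against 2.03 ± 0.250 RPKM in WT (SD, n = 3 each), a 2.53-fold rise (log2 fold change 1.34, SE 0.23, limma adjusted p = 0.00273 over all genes tested). In cluster Tg it averaged 20.04 ± 7.42 RPKM and rose 7.81-fold (log2 fold change 2.96, SE 0.23, limma adjusted p = 5.86e-06). Of all genes tested, 8.98% were called in miR-24 Tg against WT and 24.4% in cluster Tg against WT, and Dleu2 was the only called host in each, 1 of 8. Its mean was 10.7 ± 1.02 RPKM in miR-27 Tg, 4.43-fold above WT (log2 fold change 2.15, SE 0.23). The miR-23 Tg mean of 2.83 ± 0.923 RPKM gave a log2 fold change against WT of 0.36 (SE 0.23, limma adjusted p = 0.528), and the DKO mean of 2.14 ± 0.257 RPKM gave 0.06 (SE 0.23, limma adjusted p = 1). These comparisons share the WT libraries, and Dleu2 may have been chosen by values they use, so the p-values are descriptions.

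The genotypes were also compared with each other. Dleu2 was higher in cluster Tg than in DKO (log2 fold change 2.90, SE 0.23, limma adjusted p = 2.95e-06), where 26.7% of genes were called and Dleu2 alone of the 8 hosts. The limit on the p-values of Dleu2 holds here too. As a description, its log2 fold change was 1.79 (SE 0.23) in miR-27 Tg against miR-23 Tg, 0.81 (SE 0.23) in miR-27 Tg against miR-24 Tg and 0.82 (SE 0.23) in cluster Tg against miR-27 Tg. The value for cluster Tg against miR-27 Tg was 0.54 without cluster Tg library 1, the highest of all, and 0.54 to 1.03 over the 6 fits that left out 1 library.

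The microRNAs inside Dleu2 were listed as entries of their own. Their mature forms share the seed, bases 2 to 8 from the 5′ end, in capitals:
mmu-miR-15a-5p (chr14:61632075-61632096, minus strand): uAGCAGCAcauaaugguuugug
mmu-miR-16-5p (chr14:61631936-61631957, minus strand): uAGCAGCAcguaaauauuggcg
Mir16-1 was listed above 0 in 3 of 3 miR-27 Tg libraries (43.16, 83.66 and 60.39 RPKM), 2 of 3 cluster Tg libraries (22.04 and 88.35 RPKM), 1 of 3 miR-24 Tg and 1 of 3 miR-23 Tg libraries, and at 0 in every DKO and WT library. Mir15a was above 0 in 2 of 3 miR-27 Tg, 2 of 3 cluster Tg, 1 of 3 miR-24 Tg, 1 of 3 miR-23 Tg, 0 of 3 DKO and 1 of 3 WT libraries. Entries this short reach such values with few reads, and a library made for long RNA does not measure the mature microRNAs.

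Genes that overlap or neighbour Dleu2, and genes tied to miR-16, were read from a list of 9. Kcnrg, which encodes a regulator of potassium channels and lies inside the Dleu2 gene on the opposite strand, was at 1.457, 1.3 and 1.072 RPKM in cluster Tg against 0.403, 0.4137 and 0.1985 RPKM in WT. It reached 1 RPKM only in the cluster Tg and miR-27 Tg libraries, and so was among the genes tested through the groups where it is high, so no test is given. Its annotated exons share 0 bases with those of Dleu2, though reads of introns cannot be assigned to a strand here. Trim13, a ubiquitin ligase gene that also overlaps Dleu2 on the opposite strand, with 0 shared exonic bases, was at 4.02 ± 0.226 RPKM in cluster Tg and 4.10 ± 1.31 RPKM in WT (log2 fold change 0.02, limma adjusted p = 0.967). Bcl2 fell in cluster Tg to 43.3 ± 12.9 RPKM, against 66.2 ± 9.77 RPKM in WT (SD, n = 3 each; 1.55-fold, limma adjusted p = 0.0143). The cyclin genes Ccnd3 and Ccne1 were not called there, with log2 fold changes of -0.05 (limma adjusted p = 0.819) and 0.52 (limma adjusted p = 0.237). Of the 6 genes of this list with a mean of at least 1 RPKM over the 18 libraries, 0 rose and 1 fell in cluster Tg against WT, where 24.4% of all genes were called. In miR-27 Tg 2 of the 6 were higher (Ccnd3 and Ccne1) and 2 lower (Bcl2 and Spryd7) than in WT, where 28.6% of all genes were called. The log2 fold changes there were 0.52 for Ccnd3, 1.15 for Ccne1, -0.58 for Bcl2 and -0.43 for Spryd7. The counts were 0 and 0 for miR-23 Tg, for miR-24 Tg and for DKO, where 0.356%, 8.98% and 0.0174% of all genes were called.

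**Figure D2:**
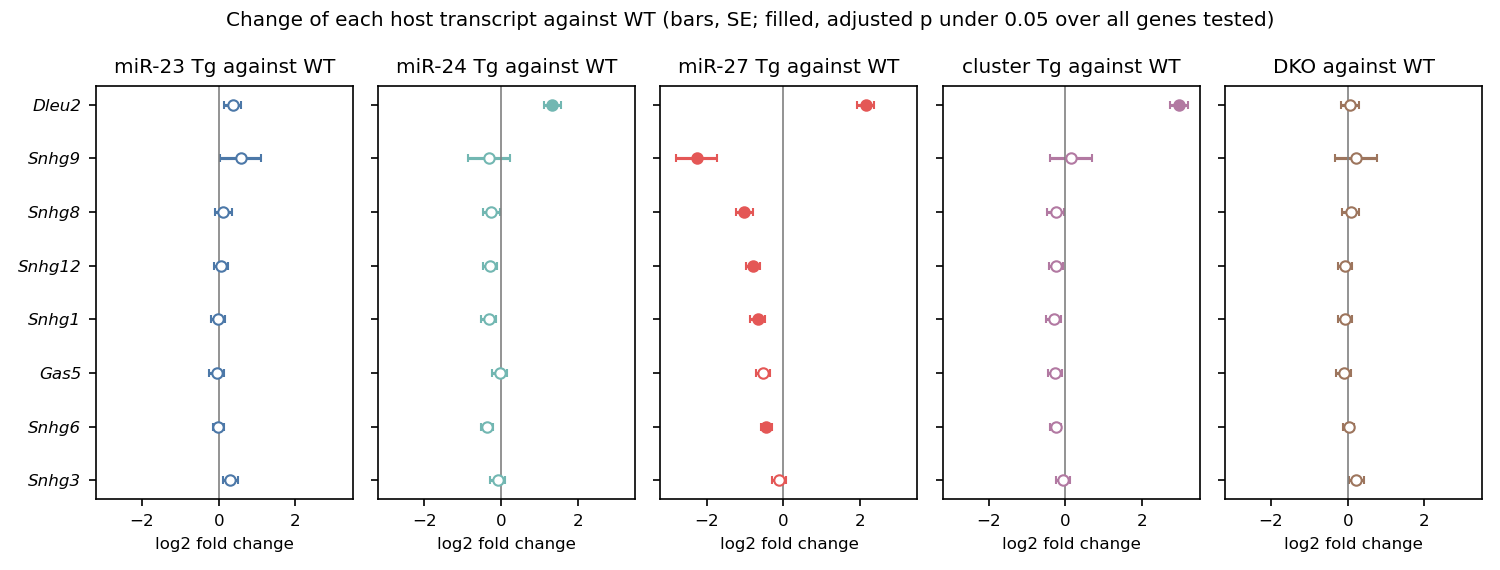
Log2 fold change with SE (horizontal axes) of the 8 hosts (rows) in each genotype against WT. Filled points have an adjusted p under 0.05 over all genes tested, a description in miR-27 Tg. Dleu2 is to the right in miR-24 Tg (1.34), miR-27 Tg (2.15) and cluster Tg (2.96), and the snoRNA hosts lie left of 0 in miR-27 Tg, from -0.11 for Snhg3 to -2.26 for Snhg9.

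The snoRNA hosts were at their lowest mean in miR-27 Tg, all 7 of them, but the gap to the next genotype varied. For Snhg3 the mean was 26.45 RPKM against 26.47 RPKM for miR-24 Tg. The miR-27 Tg libraries lay below those of the genotype with the next lowest mean for Snhg1, Snhg8, Snhg9 and Snhg12. For Gas5, Snhg6 and Snhg3 these ranges overlapped. The share of all genes with their lowest mean in miR-27 Tg is not given here. Snhg9, a short transcript on chr17:24719531-24719965 (minus strand) that carries Snora78, was at 2.89, 1.4 and 0 RPKM in the miR-27 Tg libraries, against 5.667, 8.889 and 5.582 RPKM in WT. Its spliced length is 183 bases, at which 1 read is worth 0.172 to 0.271 RPKM, so the entry listed at 0 means that few or no reads were assigned. Snhg8 (chr3:123507552-123508404, minus strand), the host of Snora24, was at 35.97, 32.54 and 31.19 RPKM in miR-27 Tg against 67.61, 72.05 and 63.14 RPKM in WT. The miR-27 Tg libraries lay below every WT library for both transcripts.

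Snhg12 (chr4:132308623-132311024, plus strand), the host of 4 snoRNAs, was at 61.08, 53.31 and 45.27 RPKM in miR-27 Tg against 94.08, 97.29 and 85.31 RPKM in WT. Snhg1 (chr19:8723475-8726443, plus strand), which carries 8, was at 119.6, 141.5 and 139 RPKM in miR-27 Tg against 218.7, 204.8 and 209.9 RPKM in WT. Gas5 (chr1:161034422-161038539, plus strand), which carries 9, was at 80.72, 72.74 and 81 RPKM in miR-27 Tg against 118.8, 103.9 and 115.7 RPKM in WT. Snhg6 (chr1:9941959-9944118, minus strand), the host of Snord87, was at 51.41, 64.31 and 58.42 RPKM in miR-27 Tg against 75.98, 79.48 and 80.08 RPKM in WT. The groups did not overlap for any of these, and over all genes tested 20.1% lay wholly below WT in miR-27 Tg and 22.8% wholly above. Snhg3 (chr4:132348014-132353686, minus strand), which carries 2 snoRNA genes, had 18.64, 27.84 and 32.87 RPKM in miR-27 Tg against 26.16, 26.86 and 30.71 RPKM in WT, and these overlapped.

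Described as log2 fold changes, the miR-27 Tg values stood at -2.26 (SE 0.54) for Snhg9, -1.01 (SE 0.22) for Snhg8, -0.80 (SE 0.18) for Snhg12, -0.66 (SE 0.19) for Snhg1, -0.53 (SE 0.19) for Gas5, -0.44 (SE 0.15) for Snhg6 and -0.11 (SE 0.19) for Snhg3, relative to WT. An adjusted p under 0.05, limma over all genes tested, took in 6 of the 8 hosts (Dleu2, Snhg1, Snhg6, Snhg8, Snhg9 and Snhg12) and 28.6% of all genes, which is given with no reading because this contrast was in view when the hosts were chosen. Snhg9 was not among them with only the 2 genotypes in the fit. Snhg6 was not with the filter on low values dropped, nor without any 1 library except miR-27 Tg library 2, when its value ran from -0.51 to -0.35. Snhg1 was not without miR-27 Tg library 1 (log2 fold change -0.59) or WT library 1 (-0.64). Without a library of miR-27 Tg or WT, the Snhg9 value ran from -2.86 to -1.48, and the value nearest to 0 came without miR-27 Tg library 3, where the transcript was listed at 0. The Snhg9 value also depends on the 0.5 RPKM added before taking logs, at -3.12 with 0.1 and -1.85 with 1.

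In the other 4 genotypes limma called 0 of the 7 snoRNA hosts against WT. Over the 7 snoRNA hosts the middle log2 fold change against WT was -0.665 for miR-27 Tg, -0.28 for miR-24 Tg, -0.25 for cluster Tg, 0.07 for miR-23 Tg and 0.02 for DKO, where the median of all genes lay between -0.004 and 0.016. Limma called 0 of the 8 hosts in miR-23 Tg against WT, where 0.356% of genes were called and 1567 had an unadjusted p under 0.05, and the smallest unadjusted p of a host was 0.13, for Snhg3. It called 0 of the 8 in DKO against WT, where 0.0174% of genes were called and 254 had an unadjusted p under 0.05, and the smallest unadjusted p of a host was 0.25, also for Snhg3. The largest uncalled differences of snoRNA hosts from WT in miR-24 Tg were those of Snhg6 (log2 fold change -0.36, SE 0.15, limma adjusted p = 0.145) and Snhg1 (-0.32, SE 0.19, limma adjusted p = 0.328).

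Direct comparisons set miR-27 Tg against the other overexpressing genotypes. They use the miR-27 Tg libraries that were in view, so they too are descriptions. Snhg9 was at 8.282, 15.78 and 7.596 RPKM in miR-23 Tg, above all 3 miR-27 Tg libraries. The log2 fold changes of miR-27 Tg against miR-23 Tg were -2.83 (SE 0.54) for Snhg9, -1.13 (SE 0.22) for Snhg8, -0.87 (SE 0.18) for Snhg12, -0.65 (SE 0.19) for Snhg1, -0.47 (SE 0.19) for Gas5, -0.43 (SE 0.15) for Snhg6 and -0.41 (SE 0.19) for Snhg3. With a library left out the Snhg9 value ran from -3.43 to -2.05, that of Snhg8 from -1.20 to -1.02 and that of Snhg12 from -0.97 to -0.76. The rule of an adjusted p under 0.05 took in 6 of the 8 hosts and 23.4% of all genes.

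Against miR-24 Tg the log2 fold changes of miR-27 Tg were -1.95 (SE 0.54) for Snhg9 and -0.76 (SE 0.22) for Snhg8. Snhg9 was at 4.272, 3.465 and 9.263 RPKM in miR-24 Tg, above all 3 miR-27 Tg libraries, and its value ran from -2.55 to -1.17 with a library left out. The Snhg8 value was -0.45 without miR-24 Tg library 2, its high library. The same rule took in 3 of the 8 hosts (Dleu2, Snhg8 and Snhg9) and 24% of all genes, and none of the 3 without miR-27 Tg library 3.

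Cluster Tg cells overexpress miR-27 as well, and their snoRNA hosts were compared with those of miR-27 Tg. All 7 had a log2 fold change above 0 in cluster Tg against miR-27 Tg, from 0.05 to 2.40. In 5 of the 8 hosts (Dleu2 among them) every cluster Tg library lay above every miR-27 Tg library, as in 12.8% of all genes tested. Snhg9 was at 7.378, 9.86 and 5.293 RPKM in cluster Tg (log2 fold change 2.40, SE 0.54), and its value without miR-27 Tg library 3, where it was listed at 0, was 1.62. Snhg8 was at 48.88, 55.66 and 66.3 RPKM in cluster Tg (0.76, SE 0.22), and Snhg12 was at 76.67, 86.29 and 69.35 RPKM (0.54, SE 0.18). The rule of an adjusted p under 0.05 took in Dleu2 and Snhg9, 2 of the 8 hosts, and 6.85% of all genes.

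For Gas5, Snhg1, Snhg8 and Snhg12 the SD between libraries was largest in miR-24 Tg of the 6 genotypes, with library 2 above the other two. It held 161.8 RPKM of Gas5, 230.9 of Snhg1, 111.4 of Snhg12 and 86.76 of Snhg8, where miR-24 Tg libraries 1 and 3 held 86.57 and 95.27, 133.3 and 157.1, 60.64 and 63.98, and 42.62 and 48.62 RPKM of the same transcripts. For Snhg9 it was the lowest of its genotype, at 3.465 RPKM. Its summed level of 10 immediate-early genes, which respond within minutes to stimulation and to tissue handling, was 4161 RPKM against 974.1 and 1358 RPKM in libraries 1 and 3. Without this library Snhg12 was lower in miR-24 Tg than in WT (log2 fold change -0.56, limma adjusted p = 0.0249), so that 2 hosts were called in place of 1.

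Across the 18 libraries, Gas5, Snhg1, Snhg8 and Snhg12 moved together, with pairwise r of 0.777 to 0.905 on the log2 scale and 0.576 to 0.880 after genotype means were removed. Pairs of all 7 snoRNA hosts ran from 0.164 to 0.905, with a median of 0.681, and from -0.399 to 0.880 with a median of 0.398 after genotype means were removed. Dleu2 ran against the snoRNA hosts (r of -0.607 to -0.344), but not within genotypes (-0.094 to 0.179). Snhg12 followed the mean log2 level of the immediate-early genes (r = 0.809, within genotypes 0.805), and the values for Gas5 were 0.422 and 0.259. These correlations describe 18 libraries that share genotypes, sorting and sequencing.

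**Figure D3:**
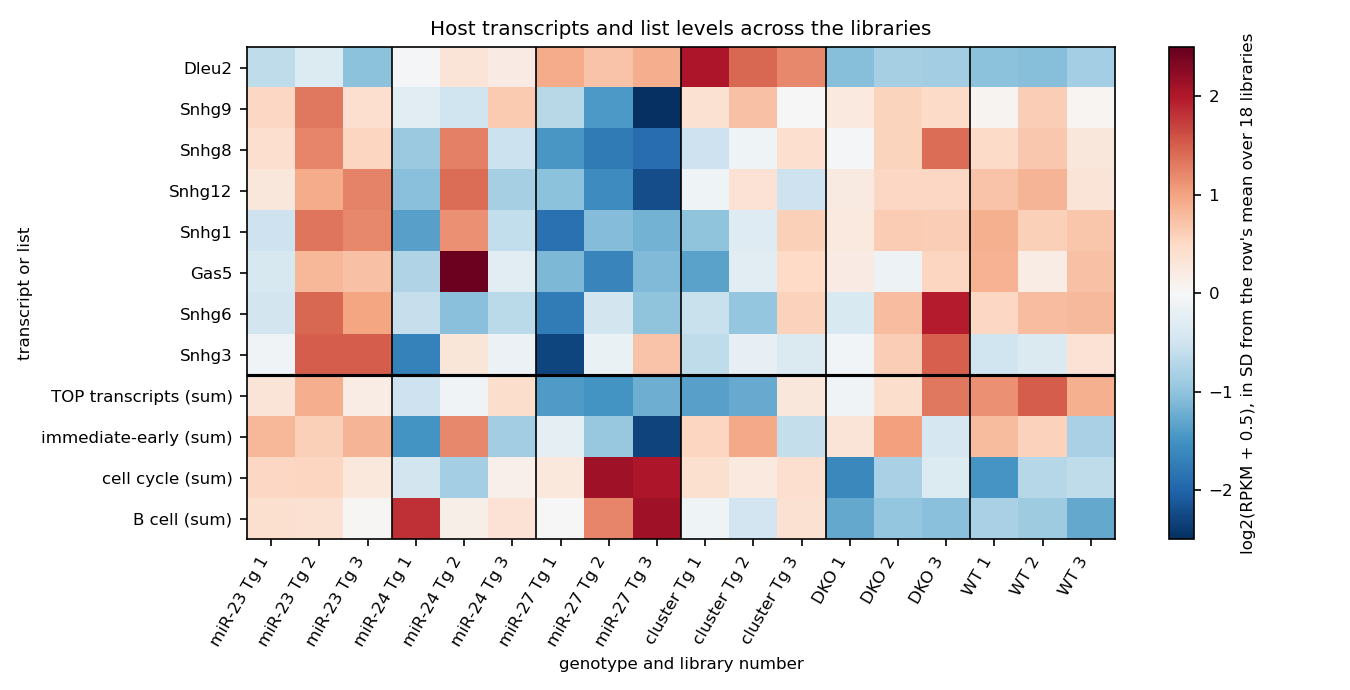
Levels of the 8 hosts (upper rows) and summed levels of 4 gene lists (lower rows) in the 18 libraries (columns, by genotype), each row in SD from its own mean on the log2 scale. The miR-27 Tg columns are low for the TOP transcripts and for the snoRNA hosts except Snhg3, which is above its mean in library 3. Libraries 2 and 3 of miR-27 Tg are high for cell cycle and B cell genes, and library 1 less so. The miR-24 Tg library 2 is high for Gas5, Snhg1, Snhg8, Snhg12 and the immediate-early genes.

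The genes closest in pattern, the 3 tested genes with the highest r to each host over 18 libraries, differed between Dleu2 and the rest. For Dleu2 they were Cd9 (a tetraspanin, r = 0.966), Alcam (an adhesion molecule, 0.964) and Tnfsf11 (the cytokine RANKL, 0.963). Mean Cd9 levels were 53.8 RPKM for miR-24 Tg, 66.06 for miR-27 Tg, 86.81 for cluster Tg, 43.74 for miR-23 Tg, 36.81 for DKO and 42.55 for WT. Snhg5, another snoRNA host, was the gene closest to Snhg1 (0.926) and to Snhg8 (0.929). Gas5 was closest to Eif4a2 (0.939), a translation factor gene that carries snoRNAs in its introns, and Snora81, a snoRNA of that gene, was among its nearest genes too (0.893). Snhg12 stood closest to 1810026B05Rik (0.952), the ribosomal protein gene Rps27 (0.944) and Snora64 (0.940), a snoRNA with means of 426.2 RPKM for miR-27 Tg and 1099 for WT. Snhg9 was nearest to Tcp11l2 (0.905), Snhg6 to 2310010J17Rik (0.905) and Snhg3 to Snrpd1 (0.850), which encodes a core protein of the spliceosome.

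Of the 26 named snoRNAs in the hosts, 9 had an entry in the table. In miR-27 Tg the 9 lay below WT, with a median log2 fold change of -1.26. For 5 of them every miR-27 Tg library lay below every WT library, as in 20.1% of all genes tested. Snora44, carried by Snhg12 (chr4:132309941-132310069), was at 96.46, 77.91 and 89.99 RPKM in miR-27 Tg against 157.6, 257.1 and 232.9 RPKM in WT. Snord22, carried by Snhg1 (chr19:8725866-8725991), was at 411.1, 433.1 and 508.5 RPKM in miR-27 Tg against 899.7, 769.7 and 765.4 RPKM in WT. Neither overlapped between the genotypes. Snord47, carried by Gas5 (chr1:161038082-161038158), was at 755.9, 1758 and 3385 RPKM in miR-27 Tg against 4744, 2976 and 5403 RPKM in WT, with overlap. Snora78, carried by Snhg9 (chr17:24719676-24719803), was at 58.43, 17.24 and 28.44 RPKM in miR-27 Tg against 47.33, 84.4 and 46.63 RPKM in WT, and its first miR-27 Tg library lay inside the WT range.

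In the other genotypes limma called 0 of the 9 snoRNA entries against WT. The smallest unadjusted p among the 9 entries was 0.0988, for Snord99 in DKO, and the median log2 fold change of the 9 was 0.30 for miR-23 Tg, 0.04 for miR-24 Tg, -0.30 for cluster Tg and -0.43 for DKO. The DKO median rested partly on Snord99 (log2 fold change -4.55, SE 2.58) and Snora24 (-2.55, SE 2.44), entries with values near 0 in some libraries and errors too wide to place them. Reads of a snoRNA may also come from the unspliced host, and the libraries were not made for RNAs of this length.

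**Figure D4:**
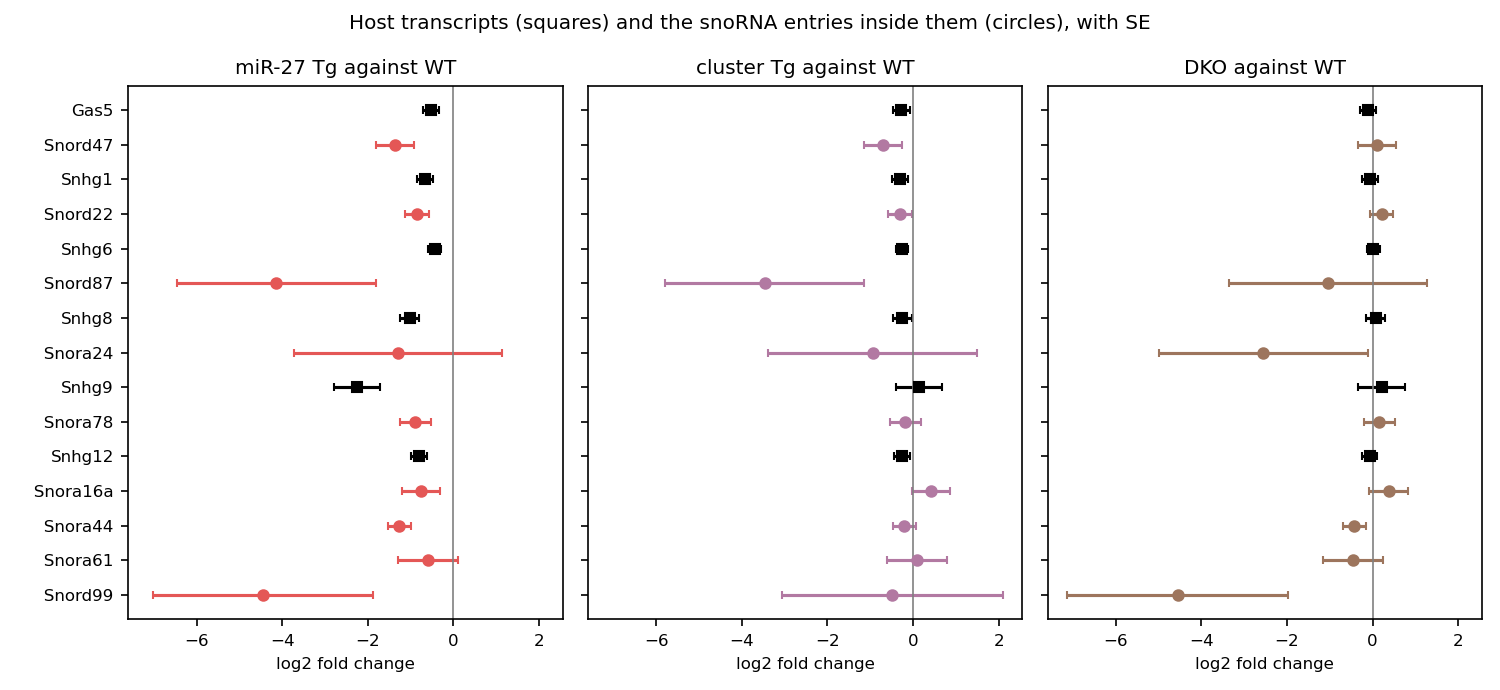
Log2 fold change with SE (horizontal axes) of 6 snoRNA hosts (squares) and of the 9 snoRNA entries inside them (circles, below their host) in miR-27 Tg, cluster Tg and DKO against WT. In miR-27 Tg every circle is left of 0, with Snora44 at -1.26, Snord47 at -1.36 and Snord22 at -0.85; Snord87, Snora24 and Snord99 have the widest error bars.

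Related gene lists were read beside the hosts. Of 82 TOP transcripts tested, cytosolic ribosomal proteins with a few translation factors, 31 fell and 2 rose in cluster Tg against WT (median log2 fold change -0.40), and 38 fell and 0 rose in miR-27 Tg against miR-23 Tg (-0.45). Over all genes 24.4% were called in cluster Tg against WT, 10.5% downward, and 23.4% in miR-27 Tg against miR-23 Tg, 10.9% downward. In miR-27 Tg 52 were lower and 1 higher than in WT (-0.59), where 12.7% of all genes were lower, among them Rps15a at 47.6 ± 4.59 RPKM in miR-27 Tg and 108 ± 4.82 RPKM in WT (SD, n = 3 each). Protein-coding genes with snoRNAs in their introns, 29 genes that partly overlap that list, had 9 lower in cluster Tg than in WT and 14 lower in miR-27 Tg than in miR-23 Tg, with 0 higher in each, which is to be read against the same shares. The mean log2 level of the TOP transcripts went with Snhg8 (r = 0.828, within genotypes 0.607) and Snhg6 (0.810 and 0.685) over 18 libraries, while the values for Snhg12 were 0.639 and -0.034.

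Proteins that build snoRNA particles were read from a list of 16. Of these, 4 fell and 0 rose in cluster Tg against WT, and 4 fell and 0 rose in miR-27 Tg against miR-23 Tg. Over all genes 24.4% and 23.4% were called in either direction, 10.5% and 10.9% downward. In miR-27 Tg against miR-23 Tg Nop10, a core protein of H/ACA particles, fell to 39.8 ± 2.06 RPKM against 87.5 ± 9.18 RPKM in miR-23 Tg (SD, n = 3 each; 2.18-fold, limma adjusted p = 7.52e-05). Fbl, the methyltransferase of C/D particles, was at 15.5 ± 2.31 RPKM in cluster Tg and 20.4 ± 0.942 RPKM in WT (1.31-fold lower, limma adjusted p = 0.0417). Nop56, Nop58 and Nhp2l1, other core proteins of C/D particles, were not called there (log2 fold changes -0.18, 0.015 and -0.13). For H/ACA core proteins the log2 fold changes of miR-27 Tg against WT were -1.01 for Nop10, -0.094 for Dkc1, -0.0024 for Gar1 and 0.0047 for Nhp2. Of 19 other noncoding hosts listed, 12 were in the table and 6 had a mean of at least 1 RPKM over the 18 libraries, of which 1 rose and 1 fell in cluster Tg against WT, where 24.4% of all genes were called. Rian, an imprinted host of many box C/D snoRNAs, was at 1.631, 1.831 and 1.832 RPKM in cluster Tg against 0.2596, 0.2063 and 0.3068 RPKM in WT, with every cluster Tg library above every WT library. It reached 1 RPKM only in cluster Tg, and so was among the genes tested through the group where it is high, so no test is given. Mir22hg, the host of miR-22, rose 3.24-fold in cluster Tg against WT (10.5 ± 4.08 RPKM in cluster Tg and 2.80 ± 0.881 RPKM in WT, limma adjusted p = 0.0103). Snhg5 was at 44.03, 46.26 and 43.52 RPKM in miR-27 Tg against 58.78, 73.95 and 72.82 RPKM in miR-23 Tg, and fell (1.52-fold, limma adjusted p = 0.0167).

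Other cell types and states moved with these genotypes. The summed level of 10 B cell markers ran from 38.28 to 112.4 RPKM in miR-27 Tg, 41.16 to 96.61 in miR-24 Tg, 30.11 to 46.39 in cluster Tg, 38.78 to 47.01 in miR-23 Tg and 19.8 to 23.23 in DKO, against 19.81 to 25.28 in WT, and none of the 10 was listed at 0 throughout a genotype. Summed levels of 20 cell cycle genes ran from 603.3 to 1218 RPKM in miR-27 Tg, 597.6 to 642.1 in cluster Tg, 604.1 to 667.8 in miR-23 Tg, 394 to 572.4 in miR-24 Tg and 296.2 to 481 in DKO, against 311.1 to 430.3 in WT. All 20 cell cycle genes were called higher in miR-27 Tg than in WT, where 15.9% of all genes were. In cluster Tg 11 were called higher, where 13.8% of all genes were. In miR-23 Tg, miR-24 Tg and DKO 0 were called, with median log2 fold changes against WT of 1.30, 0.57 and -0.075. Of all genes 0.156%, 4.6% and 0.0174% were called higher there. Summed levels of 5 plasma cell genes ran from 77.99 to 168.3 RPKM in miR-27 Tg, 66.93 to 72.75 in cluster Tg, 65.57 to 84.09 in miR-23 Tg, 63.72 to 92.73 in miR-24 Tg and 57.33 to 70.16 in DKO, against 52.92 to 59.36 in WT. Those of 8 myeloid genes ran from 108.1 to 162 RPKM in miR-27 Tg, 120.8 to 139.8 in cluster Tg, 95.5 to 131 in miR-23 Tg, 118.3 to 202 in miR-24 Tg and 74.91 to 101.1 in DKO, against 84.59 to 90.3 in WT. Sums of 5 NK cell genes were at 7.462 to 23.77 RPKM in miR-27 Tg, 4.202 to 22.96 in cluster Tg, 8.102 to 10.4 in miR-23 Tg, 7.586 to 12.92 in miR-24 Tg and 4.971 to 8.499 in DKO, against 4.056 to 4.507 in WT. Sums of 4 erythroid genes were at 2.512 to 149.4 RPKM in miR-27 Tg, 1.682 to 9.054 in cluster Tg, 8.123 to 32.34 in miR-23 Tg, 3.486 to 54.14 in miR-24 Tg and 0.2914 to 4.063 in DKO, against 1.124 to 19.23 in WT. The part of plasma cells, myeloid cells, NK cells and erythroid cells in the host values was not tested. With the B cell gene level as a covariate, chosen after the data were seen, the log2 fold changes of miR-27 Tg against WT were 2.44 (SE 0.36) for Dleu2, -0.70 (SE 0.70) for Snhg9, -0.66 (SE 0.34) for Snhg8, -0.65 (SE 0.23) for Snhg6, -0.58 (SE 0.31) for Snhg1, -0.28 (SE 0.30) for Gas5, -0.25 (SE 0.23) for Snhg12 and -0.23 (SE 0.31) for Snhg3. With the cell cycle level they were 2.11 (SE 0.41) for Dleu2, -1.90 (SE 0.99) for Snhg9, -0.92 (SE 0.21) for Snhg6, -0.86 (SE 0.40) for Snhg8, -0.66 (SE 0.29) for Snhg3, -0.59 (SE 0.34) for Snhg1, -0.26 (SE 0.28) for Snhg12 and -0.18 (SE 0.33) for Gas5. Both covariates brought Snhg1, Snhg8, Snhg9, Snhg12 and Gas5 closer to 0 and moved Snhg6 and Snhg3 away from it. The immediate-early covariate was fitted too, and its values for this comparison are not given here. Summed immediate-early levels were 622.2 to 1903 RPKM in miR-27 Tg, 1578 to 3629 in cluster Tg and 2997 to 3446 in miR-23 Tg. They were 974.1 to 4161 RPKM in miR-24 Tg, 1724 to 3763 in DKO and 1409 to 3331 in WT. In bulk libraries fewer cells of a type and less RNA per cell cannot be told apart.

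Overlapping genes limit some of the values, since the notes do not say that strand was used in counting. Snhg9 shares 14 of its 183 exonic bases with Rps2 on the opposite strand, a ribosomal protein gene at 273 ± 27.4 RPKM in miR-27 Tg and 351 ± 23.5 RPKM in WT (SD, n = 3 each; log2 fold change -0.37). Snhg3 shares 135 exonic bases with Rcc1 on its own strand, a gene of chromatin-bound nucleotide exchange that was at 31.6 ± 9.53 RPKM in miR-27 Tg and 17.3 ± 1.65 RPKM in WT. Snhg6 shares 127 exonic bases with Mcmdc2, which was at or below 0.1077 RPKM in every library. Gas5 and Zbtb37 share 0 exonic bases. Snora24 lies within the 1 exon of the Snhg8 transcript chosen here, so Snhg8 values may include reads of Snora24.

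Matches to the seeds of the overexpressed microRNAs were looked for in the host RNAs: AATGTGA for miR-23, CTGAGCC for miR-24 and ACTGTGA for miR-27, on the strand of the transcript. The transcript chosen for each of the 8 hosts held 0 matches to any of them. For a length like that of Dleu2, 1437 bases, 11.4% of 2305 noncoding transcripts held the miR-23 match, 17.5% the miR-24 match and 12.8% the miR-27 match. Among all 15 annotated Dleu2 transcripts, 3 held the miR-23 match, 3 the miR-24 match and 0 the miR-27 match.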

How the data were processed

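RNA of sorted Treg cells was sequenced in 18 libraries, 3 for each of 6 genotypes. Total RNA with small RNAs kept was made into TruSeq RNA libraries and read on an Illumina HiSeq instrument, per the labels' protocols. The authors deposited RPKM values in 1 table. STAR 2.2.0c, HOMER and the build mm10 (GRCm38) are named, per the submitters' processing notes, but the annotation, the use of strand and the step that made RPKM are not given in the sources used here. Read counts were not used.

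Genes that reached 1 RPKM in 3 or more libraries were tested on log2(RPKM + 0.5), in a single limma 3.58.1 model with a mean-variance trend over all 18 libraries (R 4.3.3). A gene was called when its two-sided Benjamini-Hochberg adjusted p over the 11520 genes of a comparison was under 0.05. Fold changes are on this log2(RPKM + 0.5) scale, which understates changes of low genes. The spread between 3 libraries and not depth limits the precision, and 4 entries with a repeated symbol were left out. Locations and overlaps came from GENCODE vM21, and sequences from RefSeq GRCm38.p6. Tables were handled with Python 3.11.15 and pandas 2.3.3. The fit was tested on simulated data.

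The members and lists were chosen with earlier results of these data known. All 8 hosts are named. The plan was also to name the small RNAs inside them, the 3 genes of highest correlation to each, and up to 4 called genes per list by smallest p. Only some of these are printed. Among those left out are Snora16a and Snora61, inside Snhg12, and Eif4ebp2, the growth regulator with the smallest p. Other genes that the text names (Trim13, Fbl, Larp1, Ccnd3, Ccne1, Spryd7, Kcnrg and Rian in cluster Tg, Cd8a, overlapping genes) were chosen after their values were seen. The limit of a mean of 1 RPKM over the 18 libraries, for counts in 2 lists with low genes, was also set then.

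Alternatives were pseudocounts of 0.1 and 1, leaving out each library, a replicate block, a fit of just the 2 compared genotypes, scaling by median of ratios and dropping the filter. Covariates for B cell, cell cycle and immediate-early genes were added after the data were seen.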

Additional observations from a re-analysis of the deposited data

How the results depend on the processing

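With 3 libraries per genotype and no read counts, small changes of the hosts cannot be placed, and Snhg9 has few reads. The rise of Dleu2 over WT kept its direction under all alternatives, covariates included, for miR-24 Tg, miR-27 Tg and cluster Tg. Its call was also kept for cluster Tg and for miR-24 Tg. Counts of hosts that use the miR-27 Tg libraries are descriptions here too. The number of hosts called in miR-24 Tg against WT was 2 in place of 1 with only the 2 genotypes fitted and with the cell cycle covariate, and 1 to 2 with a library left out. In miR-27 Tg against WT it was 1 with the B cell covariate and 2 with the cell cycle covariate in place of 6, and 4 to 6 with a library left out. The cell cycle covariate also gave 2 in cluster Tg against WT and 2 in cluster Tg against DKO in place of 1 each, and 0 in miR-27 Tg against miR-24 Tg in place of 3. That last count was 1 with only the 2 genotypes fitted, and 0 to 4 with a library left out. In cluster Tg against miR-27 Tg, 2 in the report, it was 1 with a pseudocount of 0.1, 1 with no filter, 0 with only the 2 genotypes, 0 with the B cell or immediate-early covariate, 1 with the cell cycle covariate, and 0 to 2 with a library left out. The number of all genes called moved with the setting too. In miR-23 Tg against WT it was 41 in the main fit, 1 with the B cell covariate and 124 with the cell cycle covariate. Such totals are not given here for the other comparisons, so the shifts in host counts are not read as results about the hosts. The cause of these shifts was not tested.

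Taken over all genes, the replicate numbers showed little pairing: over 45 same-number pairs deviations correlated at -0.167 to 0.188 (median 0.00397), 6 of them over 0.1. Single hosts may differ, since library 1 held the least Snhg3 in each genotype. In miR-23 Tg against WT the replicate block took the SE of Snhg3 from 0.19 to 0.12, and that of Dleu2 from 0.23 to 0.24. With the replicate block the hosts called numbered 0 for miR-23 Tg, 1 for miR-24 Tg, 7 for miR-27 Tg, 1 for cluster Tg and 0 for DKO against WT, Gas5 joining in miR-27 Tg (adjusted p = 0.0481), 7 in miR-27 Tg against miR-23 Tg, 4 against miR-24 Tg, 2 in cluster Tg against miR-27 Tg and 1 against DKO. The block also changed the calls over all genes, from 41 to 76 in miR-23 Tg against WT. These host counts are therefore not read as results about the hosts.

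Signs turned only among uncalled log2 fold changes against WT. With the B cell covariate Gas5 was 0.13 and Snhg1 0.0503 for miR-23 Tg, and for miR-24 Tg Gas5 was 0.16, Snhg8 0.0313, Snhg9 0.94 and Snhg12 0.15. With the cell cycle covariate Gas5 was 0.16, Snhg1 0.0266 and Snhg3 -0.037 in miR-23 Tg, Gas5 0.0651 in miR-24 Tg and Snhg12 0.0639 in cluster Tg. With the immediate-early covariate Snhg6 was 0.0529 and Snhg12 -0.0777 in miR-23 Tg. Leaving out a library gave, in miR-23 Tg, -0.12 to 0.0541 for Gas5, -0.12 to 0.17 for Snhg1, -0.11 to 0.13 for Snhg6 and -0.0040 to 0.16 for Snhg12. It gave, in miR-24 Tg, -0.31 to 0.14 for Gas5 and -0.20 to 0.0676 for Snhg3, in miR-27 Tg -0.28 to 0.12 for Snhg3, in cluster Tg -0.10 to 0.0090 for Snhg3 and -0.0639 to 0.36 for Snhg9, and in DKO -0.13 to 0.16 for Snhg6 and -0.10 to 0.23 for Snhg8.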

Other observations

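Regulators of growth and of RNA decay were read beside the hosts. Myc, the transcription factor that drives ribosome making, fell in cluster Tg to 50.04 ± 5.46 RPKM, against 80.01 ± 9.23 RPKM in WT (SD, n = 3 each; 1.59-fold, limma adjusted p = 0.00183), and in miR-24 Tg to 59.3 ± 3.48 RPKM (1.34-fold, limma adjusted p = 0.0493). It was also lower in miR-27 Tg, at 51.25 ± 9.70 RPKM (log2 fold change against WT -0.65). Larp1, which binds TOP transcripts, was at 32.85, 37.55 and 31.45 RPKM in cluster Tg and 47.96, 48.75 and 45.23 RPKM in WT (1.39-fold lower, limma adjusted p = 0.00776; chosen after its values were seen). The log2 fold change of Larp1 against WT was -0.11 in miR-27 Tg and -0.28 in miR-24 Tg. Of 14 growth regulators tested, 3 fell and 0 rose in cluster Tg, and 2 fell and 0 rose in miR-24 Tg, each against WT. Over all genes 24.4% were called in cluster Tg, 10.5% downward, and 8.98% in miR-24 Tg, 4.38% downward. Of 17 genes of nonsense-mediated decay, 3 fell and 0 rose in cluster Tg and 2 fell and 0 rose in miR-24 Tg against WT, to be read against the same shares. In miR-27 Tg against WT 1 gene of each list was lower and 0 were higher, where 12.7% of all genes were lower. Dcp2, a decapping enzyme, was at 5.93 ± 1.32 RPKM in cluster Tg and 9.48 ± 1.32 RPKM in WT (limma adjusted p = 0.0146).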
